A study of Mus musculus with 25 samples.

Results

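The 47 genes described here copy DNA or supply its building blocks. They were taken by symbol from a table of 54429 entries, and all 47 were found: the genes of origin licensing, the MCM helicase and its activation, the replicative polymerases and primase, the clamp and its loader, flap removal and ligation, single-strand binding, nucleotide supply, chromatin copying, and fork protection. RNA was sequenced from astrocytes of the cortex of C57BL/6J mice, bound to a dish through an antibody to HepaCAM (an adhesion protein of the astrocyte surface) and then cultured. Of the 25 libraries, 3 were from cells given an EGFR inhibitor and 3 from their DMSO controls, 2 from cells without HBEGF (withdrawal) and 2 from cells with it, 3 from cells given a P53 inhibitor and 3 from their own DMSO controls, and 3 each from untreated cultures on days 2, 7 and 14 in vitro. Both inhibitors were added on day 2 in vitro, and HBEGF was added or left out from the day of preparation. The genotype is the same in all groups, and the sources used here name neither the inhibitors nor their doses, the animals' age or the day treated cells were harvested. HBEGF, a ligand of the EGF receptor, and the receptor's kinase act in the same pathway.

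A cell copies its DNA once per cycle. In G1 phase the origin recognition complex, Cdc6 and Cdt1 load rings of MCM proteins on the DNA, and at the start of S phase Cdc45 and the GINS complex turn each ring into an active helicase. Polymerase alpha with primase begins each strand, polymerases delta and epsilon extend it while held by the clamp PCNA, and ribonucleotide reductase and thymidylate synthase make the deoxynucleotides that they use. Many of these genes are transcribed in late G1 and S phase through E2F factors, which growth factors release from the retinoblastoma proteins by way of cyclin D. Astrocytes divide in the first postnatal weeks and seldom afterwards.

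Promoters of 5 members are shown because these genes lead the results below and differ in the motifs they hold. RefSeq promoters (GRCm38.p6, 250 bases before to 50 after the start of transcription) were at hand for 39 of the 47 members, and capitals mark the E2F-type letters TTTCCCGC or TTTGGCGC and the letters CCAAT, each on either strand.
Mcm3, chr1:20820263-20820562, minus strand: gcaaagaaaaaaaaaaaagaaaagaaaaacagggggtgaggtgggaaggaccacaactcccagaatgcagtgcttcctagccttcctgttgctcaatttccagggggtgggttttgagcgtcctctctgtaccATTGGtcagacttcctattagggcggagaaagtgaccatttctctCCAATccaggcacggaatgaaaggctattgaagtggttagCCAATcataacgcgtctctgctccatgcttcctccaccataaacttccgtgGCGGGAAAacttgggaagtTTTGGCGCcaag
Mcm5, chr8:75109259-75109558, plus strand: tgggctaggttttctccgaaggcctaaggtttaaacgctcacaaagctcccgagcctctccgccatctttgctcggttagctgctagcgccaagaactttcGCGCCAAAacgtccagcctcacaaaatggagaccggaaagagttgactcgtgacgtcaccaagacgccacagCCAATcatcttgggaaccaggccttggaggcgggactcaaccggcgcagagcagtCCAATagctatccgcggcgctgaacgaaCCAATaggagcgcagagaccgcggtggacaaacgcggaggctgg
Cdt1, chr8:122567765-122568064, plus strand: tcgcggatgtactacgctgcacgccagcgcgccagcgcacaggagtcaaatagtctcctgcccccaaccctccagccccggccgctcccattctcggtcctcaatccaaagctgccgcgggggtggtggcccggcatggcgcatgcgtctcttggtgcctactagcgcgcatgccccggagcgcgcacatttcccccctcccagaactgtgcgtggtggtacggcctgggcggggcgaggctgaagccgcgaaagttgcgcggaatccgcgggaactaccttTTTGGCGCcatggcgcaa
Rrm2, chr12:24708004-24708303, plus strand: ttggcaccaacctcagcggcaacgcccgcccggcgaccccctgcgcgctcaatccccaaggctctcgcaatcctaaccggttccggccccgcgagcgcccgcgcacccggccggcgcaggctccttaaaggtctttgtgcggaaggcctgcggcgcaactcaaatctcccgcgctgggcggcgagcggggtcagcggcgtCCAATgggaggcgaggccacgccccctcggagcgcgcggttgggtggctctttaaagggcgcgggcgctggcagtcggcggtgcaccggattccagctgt
Pcna, chr2:132253131-132253430, minus strand: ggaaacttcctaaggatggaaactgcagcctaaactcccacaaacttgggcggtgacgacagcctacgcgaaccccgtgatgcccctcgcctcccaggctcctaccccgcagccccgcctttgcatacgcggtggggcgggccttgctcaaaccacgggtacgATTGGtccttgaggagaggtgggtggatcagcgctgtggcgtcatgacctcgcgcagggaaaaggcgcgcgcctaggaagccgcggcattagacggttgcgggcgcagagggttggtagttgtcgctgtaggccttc
E2F-type letters occurred in 12 of the 39 promoters (30.8%), against 1.80% of the promoters of all 27025 symbols. They were in the promoters of Mcm3 (on both strands), Mcm5, Mcm6, Mcm7, Cdc6, Cdt1, Gins3, Pola1, Pold1, Pold3, Pole2 and Rfc3, while Rrm2 and Pcna held CCAAT letters but neither E2F-type form in this window. CCAAT occurred in 24 of the 39 (61.5%, against 41.1% of all symbols). TTTGAA, the CHR-type letters known from genes of G2 and M phase, occurred in 5 of the 39 (12.8%, against 20.2% of all symbols). For contrast, of 26 promoters matched to a set of 30 mitosis genes 0 held E2F-type letters, 18 TTTGAA and 20 CCAAT. No motif lies within another, on either strand, and a match describes letters, not a bound site.

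The libraries held 4011125 to 9694934 reads in genes, with a median of 6109319, and mitochondrial ribosomal RNA took 12.3 to 29.8% of them. RPKM in this table is per kilobase of the whole gene span with its introns, so it is used below within a gene, and levels of different members are compared only per kilobase of exon. The astrocyte markers Hepacam, Sox9 and Aldoc were present in all groups, Hepacam at 13.2 RPKM with the EGFR inhibitor and 10.4 RPKM with DMSO. Gjb6, of the same list, was at 0 in every library of the P53 DMSO, HBEGF withdrawal and day 2 groups. Endothelial markers summed to at most 0.414 RPKM in any library, and microglial and neuronal ones to at most 4.93 and 4.79 RPKM. The 5 markers of oligodendrocyte precursors had a high sum in control cells, nearly all of it Olig1 and Olig2. Neither the cultures nor the animals behind the replicates are described, so the p-values speak for the spread between these libraries only, and that spread may be technical. In bulk RNA, fewer cells in S phase and less of these transcripts per cell cannot be told apart.

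In DMSO-treated control cells of the EGFR experiment the members differed widely in level. Taken as CPM (reads scaled to the same total in every library) per kilobase of exon, Rrm2, the regulated subunit of ribonucleotide reductase, was highest at 89.7 ± 7.56 (SD, n = 3), above Mcm4 at 45.2 ± 2.36 and Tipin at 41.6 ± 3.02. The gap from Rrm2 to Mcm4 was far larger than either spread, and that from Mcm4 to Tipin only a little larger. Subunits of a single complex were not level: on the same scale the GINS subunits Gins4 and Gins2 stood at 28.2 ± 2.94 and 26.1 ± 0.473, while Gins1 and Gins3 stood at 12.6 ± 1.67 and 4.52 ± 0.299. The lowest members were Pola2, at 3.19 ± 0.474, and Fen1, the flap endonuclease, at 0.113 ± 0.0437. Fen1 (ENSMUSG00000024742.15, chr19:10199132-10204169) had 0 to 5 reads in every one of the 25 libraries; 84.2% of its exon bases are also exon of Gm10143 or Tmem258, and the sources used here do not say how shared bases were counted. Of the other 46 members, 31 share no exon base with another gene. Gins2 and Chaf1a share 67.3% and 52.5% of theirs, with Gse1 and Ubxn6, and their values are therefore uncertain.

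Replication genes fell together with the EGFR inhibitor and again after HBEGF withdrawal. Summed over the 47 members, transcripts made up 1197 ± 57.2 CPM with the EGFR inhibitor, against 3489 ± 136 with DMSO (SD, n = 3 each), and 1072 ± 38.8 after HBEGF withdrawal, against 3531 ± 576 with HBEGF (SD, n = 2 each). Tests were made with limma on log2(RPKM + 1), where changes of genes near or below 1 RPKM come out too small, and 41 members passed the filter of 1 RPKM in 2 libraries. With the EGFR inhibitor 40 of the 41 fell and 0 rose at a Benjamini-Hochberg adjusted p below 0.05, where 22.2% of all 13850 tested genes fell. After HBEGF withdrawal 38 fell and 0 rose, where 22.5% of all tested genes fell. The median log2 change of the 41 was -1.0 with the inhibitor and -1.13 after withdrawal, beside -0.02 and -0.10 over all tested genes. All libraries with the inhibitor lay below all DMSO libraries for 40 of the 41, as 28.7% of tested genes did, and all withdrawal libraries lay below both HBEGF libraries for 40, as 37.1% did.

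Under median-of-ratios scaling the counts were 36 and 33 of 41. Mitochondrial ribosomal RNA took 23.4 ± 1.77% of reads with the inhibitor, against 18.7 ± 0.237% with DMSO, and 28.9 ± 1.31% after withdrawal, against 17.7 ± 0.732% with HBEGF (SD); with mitochondrial genes left out of the scaling the counts were 39 and 37. Median-of-ratios scaling moved the median of all genes by 0.18 with the inhibitor and 0.24 after withdrawal, and turned the split of calls over all genes to 3940 higher and 1713 lower, against 2261 and 3076, and to 3188 higher and 1230 lower, against 1390 and 3121. Relative to the median of all genes, the members' median was -0.96 under that scaling and -0.98 as deposited with the inhibitor, and -0.98 and -1.03 after withdrawal. The withdrawal calls draw their spread from all 25 libraries: with its 4 libraries fitted alone, 0 members and 0 genes of the whole table passed.

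Markers of other cells moved in the same comparisons. The astrocyte markers summed to 366 to 386 RPKM with the inhibitor, against 110.3 to 141 RPKM with DMSO, and to 276 to 300.2 RPKM after withdrawal, against 118 to 124 RPKM with HBEGF. The 5 oligodendrocyte precursor markers summed to 105 to 129 RPKM with the inhibitor, against 321 to 417 RPKM with DMSO, and to 85.2 to 94.1 RPKM after withdrawal, against 386 to 411 RPKM with HBEGF, with 3 of the 5 called lower in each. In the EGFR comparison Olig1, Olig2 and Cspg4 fell while Pdgfra averaged 2.10 ± 0.231 RPKM with the inhibitor, against 1.5 ± 0.0232 RPKM with DMSO, and Sox10 2.76 ± 0.742, against 1.54 ± 0.453 RPKM, neither of which passed. After withdrawal Olig1, Olig2 and Pdgfra fell, while Sox10 averaged 5.05 ± 2.24 RPKM after withdrawal, against 3.72 ± 0.846 RPKM with HBEGF, and Cspg4 0.586 ± 0.276, against 0.498 ± 0.0730 RPKM, neither of which passed. The sums are almost all Olig1 and Olig2, and sums of RPKM weigh genes of short span most. The 3 ependymal markers summed to 15.9 to 21 RPKM with the inhibitor, against 2.55 to 2.92 RPKM with DMSO, and to 32.2 to 36.3 RPKM after withdrawal, against 4.10 to 5.83 RPKM with HBEGF. The astrocyte list rose in 6 and fell in 1 of 9 tested genes with the inhibitor (Aldh1l1), and rose in 5 and fell in 2 after withdrawal (Aldh1l1 and Slc1a3). Neuronal markers summed to 3.59 to 4.79 RPKM with the inhibitor, against 0.746 to 0.766 RPKM with DMSO, where both tested genes rose, and to 3.96 to 4.64 RPKM after withdrawal, against 1.42 to 4.03 RPKM with HBEGF. The tested genes, Tubb3 and Dcx, were below 1 RPKM in every DMSO library of the EGFR experiment. They thus passed the filter through other groups, which limits what their rise tells. Markers of mature oligodendrocytes summed to 6.71 to 7.19 RPKM with the inhibitor, against 3.54 to 5.35 RPKM with DMSO (1 of 4 rose), and to 25 to 25.8 RPKM after withdrawal, against 8.63 to 17.5 RPKM with HBEGF (3 of 4 rose). Mag, 1 of these 3, had a log2 change of 1.01 after withdrawal and -0.006 with the inhibitor. It may have passed the filter only through the withdrawal libraries, and its rise may then be set by the filter. The microglial gene Tyrobp and the mural gene Pdgfrb, the tested genes of their lists, rose in both comparisons (log2 change of Tyrobp 0.60, adjusted p = 0.0355 with the inhibitor, and 1.72, adjusted p = 9.09e-05 after withdrawal). Both genes passed the filter only through the treated groups. Pdgfrb averaged 1.16 RPKM with the inhibitor and 1.51 RPKM after withdrawal, against 0.140 RPKM with DMSO and 0.199 RPKM with HBEGF. Their rise was thus largely set by the filter. The part of such markers in the fall of the replication genes was not tested.

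**Figure D1:**
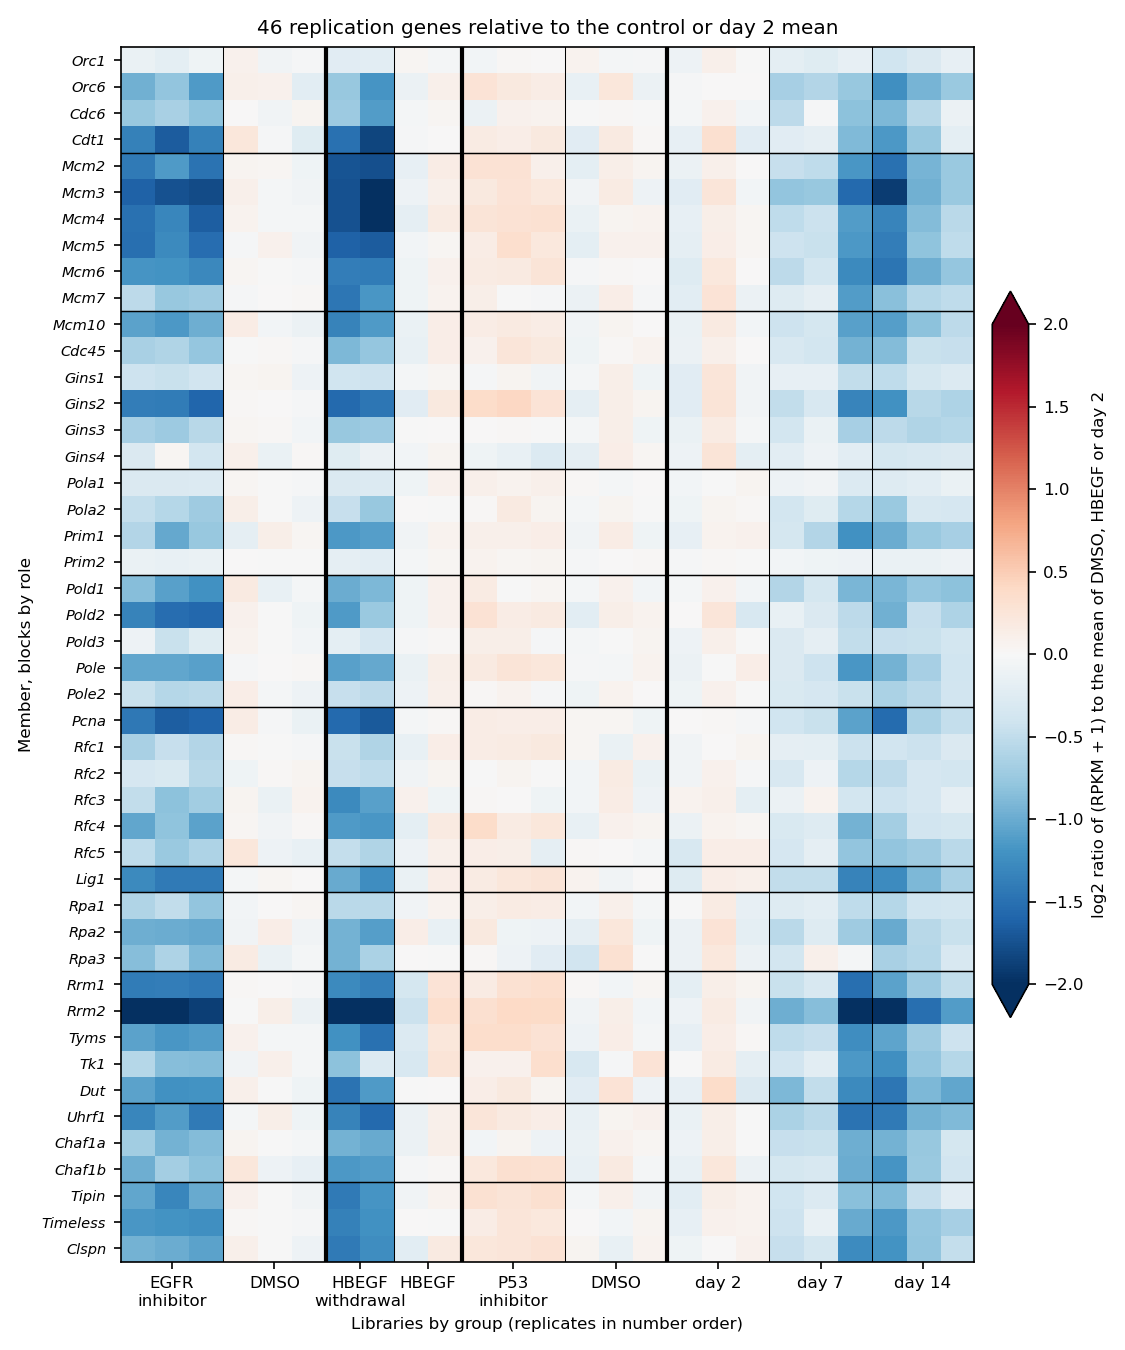
Heat map of 46 members (rows, in blocks by role, Fen1 left out for its 0 to 5 reads) in 25 libraries (columns), coloured by the log2 ratio of RPKM + 1 to the mean of the experiment's DMSO libraries, HBEGF libraries or day 2 libraries. Blue is lower, red higher, and the colour scale ends at 2 in either direction. The EGFR inhibitor and HBEGF withdrawal columns are blue in nearly every row, and pale for Gins4 and for members far below 1 RPKM, such as Orc1 and Prim2.

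Origin licensing genes were among those that fell. Cdt1, which brings the MCM rings to origins, had 1.46, 0.962 and 1.44 RPKM with the EGFR inhibitor, against 6.28, 5.17 and 4.30 RPKM with DMSO, and 1.49 and 0.969 RPKM after HBEGF withdrawal, against 5.96 and 6.12 RPKM with HBEGF. The groups were far apart in both comparisons. Its log2 change was -1.45 ± 0.22 (SE, limma adjusted p = 5.14e-05) with the inhibitor and -1.67 ± 0.27 (adjusted p = 1.34e-04) after withdrawal. Cdc6, the loading ATPase, had 0.479, 0.598 and 0.430 RPKM with the EGFR inhibitor, against 1.52, 1.39 and 1.60 RPKM with DMSO, and 0.559 and 0.185 RPKM after HBEGF withdrawal, against 1.5 and 1.65 RPKM with HBEGF. No treated library reached its control group, and the log2 changes were -0.74 ± 0.18 (adjusted p = 0.00266) and -0.92 ± 0.22 (adjusted p = 0.00302), with 15 to 213 reads per library behind them. Without HBEGF withdrawal replicate 2 the adjusted p of Cdc6 after withdrawal was 0.0508, which did not pass. Orc6, a subunit of the origin recognition complex, fell in both, to 42.6% and 43.0% of its control mean. Orc1, the complex's largest subunit, was below the filter, with 0.291, 0.230 and 0.333 RPKM with the inhibitor, against 0.509, 0.343 and 0.395 RPKM with DMSO.

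All 6 subunits of the MCM helicase ring, Mcm2 to Mcm7, fell in both comparisons. Mcm2 had 2.50, 3.26 and 2.34 RPKM with the EGFR inhibitor, against 8.67, 8.55 and 7.74 RPKM with DMSO, and 2.09 and 2.03 RPKM after HBEGF withdrawal, against 8.13 and 10.3 RPKM with HBEGF. Mcm3 had 1.98, 1.73 and 1.66 RPKM with the EGFR inhibitor, against 8.82, 7.85 and 7.75 RPKM with DMSO, and 1.97 and 1.26 RPKM after HBEGF withdrawal, against 8.23 and 9.61 RPKM with HBEGF. No libraries overlapped; the log2 changes of Mcm2 were -1.34 ± 0.18 (SE, limma adjusted p = 1.68e-05) and -1.74 ± 0.22 (adjusted p = 1.47e-05), and those of Mcm3 -1.71 ± 0.24 (adjusted p = 1.93e-05) and -1.93 ± 0.29 (adjusted p = 6.44e-05). Mcm4 had 3.65, 4.25 and 3.14 RPKM with the EGFR inhibitor, against 12.7, 11.7 and 11.6 RPKM with DMSO, and 3.57 and 2.41 RPKM after HBEGF withdrawal, against 12.4 and 16.1 RPKM with HBEGF. Mcm5 had 1.16, 1.56 and 1.15 RPKM with the EGFR inhibitor, against 5.07, 5.56 and 4.89 RPKM with DMSO, and 1.32 and 1.26 RPKM after HBEGF withdrawal, against 5.90 and 6.37 RPKM with HBEGF. Both subunits were clear of their controls in every library, with log2 changes with the inhibitor of -1.48 ± 0.19 (adjusted p = 8.45e-06) for Mcm4 and -1.43 ± 0.19 (adjusted p = 1.32e-05) for Mcm5, and after withdrawal of -1.94 ± 0.23 (adjusted p = 6.92e-06) and -1.64 ± 0.23 (adjusted p = 3.81e-05). Mcm6 fell to 33.3% of the DMSO mean and 28.6% of the HBEGF mean. The subunits fell unequally with the inhibitor, to between 22% and 59.3% of the DMSO mean, and to between 18.1% and 35.3% of the HBEGF mean after withdrawal.

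Mcm7 was the subunit that kept the largest share in both. Chosen after its values were seen, Mcm7 (ENSMUSG00000029730.16, chr5:138164583-138172422) had 6.33, 5.18 and 5.37 RPKM with the EGFR inhibitor, against 9.29, 9.55 and 9.61 RPKM with DMSO, and 3.32 and 4.26 RPKM after HBEGF withdrawal, against 10.1 and 11.4 RPKM with HBEGF. Its log2 change was -0.67 ± 0.18 (adjusted p = 0.00779) with the inhibitor and -1.30 ± 0.23 (adjusted p = 2.68e-04) after withdrawal, and the difference between these changes, 0.63 ± 0.29 (SE), did not pass (limma adjusted p = 0.301). Mcm7 shares 12.6% of its exon bases with neighbours and starts 420 bases from Ap4m1, a gene on the other strand. Ap4m1 rose with the inhibitor, by 0.54 in log2 (adjusted p = 7.11e-04), and had a log2 change of -0.17 after withdrawal (adjusted p = 0.383). The part of shared exon bases in these values was not tested. In all, 11 of the 47 members (23.4%) have a protein-coding gene that starts within 1000 bases on the other strand, against 10.8% of 22028 protein-coding genes, and 5 of the members' partners passed the filter: 2 fell and 1 rose with the inhibitor, and 3 fell and 0 rose after withdrawal.

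The genes that activate the helicase fell, apart from Gins4. Mcm10, which is needed for the ring to start unwinding, had 0.580, 0.483 and 0.683 RPKM with the EGFR inhibitor, against 2.68, 2.20 and 2.03 RPKM with DMSO, and 0.192 and 0.370 RPKM after HBEGF withdrawal, against 1.72 and 2.28 RPKM with HBEGF. Treated and control libraries were clearly apart, and its log2 changes were -1.06 ± 0.16 (SE, limma adjusted p = 6.18e-05) and -1.22 ± 0.20 (adjusted p = 1.58e-04). Gins2, a GINS subunit, had 3.20, 3.17 and 2.68 RPKM with the EGFR inhibitor, against 10.1, 10.1 and 9.80 RPKM with DMSO, and 3.37 and 3.71 RPKM after HBEGF withdrawal, against 10.0 and 13.7 RPKM with HBEGF. No treated library overlapped a control, with log2 changes of -1.46 ± 0.21 (adjusted p = 3.03e-05) and -1.49 ± 0.26 (adjusted p = 2.46e-04). Gins3 and Cdc45, the other helicase cofactors that were tested, also fell in both, to 29.8% and 36.2% of the DMSO mean and to 23.2% and 25.6% of the HBEGF mean. Gins4 (ENSMUSG00000031546.6, chr8:23226616-23237659), the fourth subunit of GINS, had 2.64, 3.56 and 2.45 RPKM with the EGFR inhibitor, against 3.76, 3.06 and 3.51 RPKM with DMSO. These libraries overlapped. After withdrawal it had 3.14 and 3.49 RPKM, against 3.68 and 4.09 RPKM with HBEGF, and the gap was narrow. Its log2 changes of -0.20 ± 0.12 (adjusted p = 0.195) and -0.18 ± 0.14 (adjusted p = 0.389) did not pass, and under median-of-ratios scaling both were above 0. Gins4 shares no exon base with another gene and had 122 to 377 reads per library, against 29 to 488 for Mcm10. Leaving out EGFR inhibitor replicate 2 brought the Gins4 change to -0.32 (adjusted p = 0.0432), past the threshold. Gins1 was below the filter at 0.299, 0.270 and 0.335 RPKM with the inhibitor, against 0.788, 0.800 and 0.625 RPKM with DMSO.

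**Figure D2:**
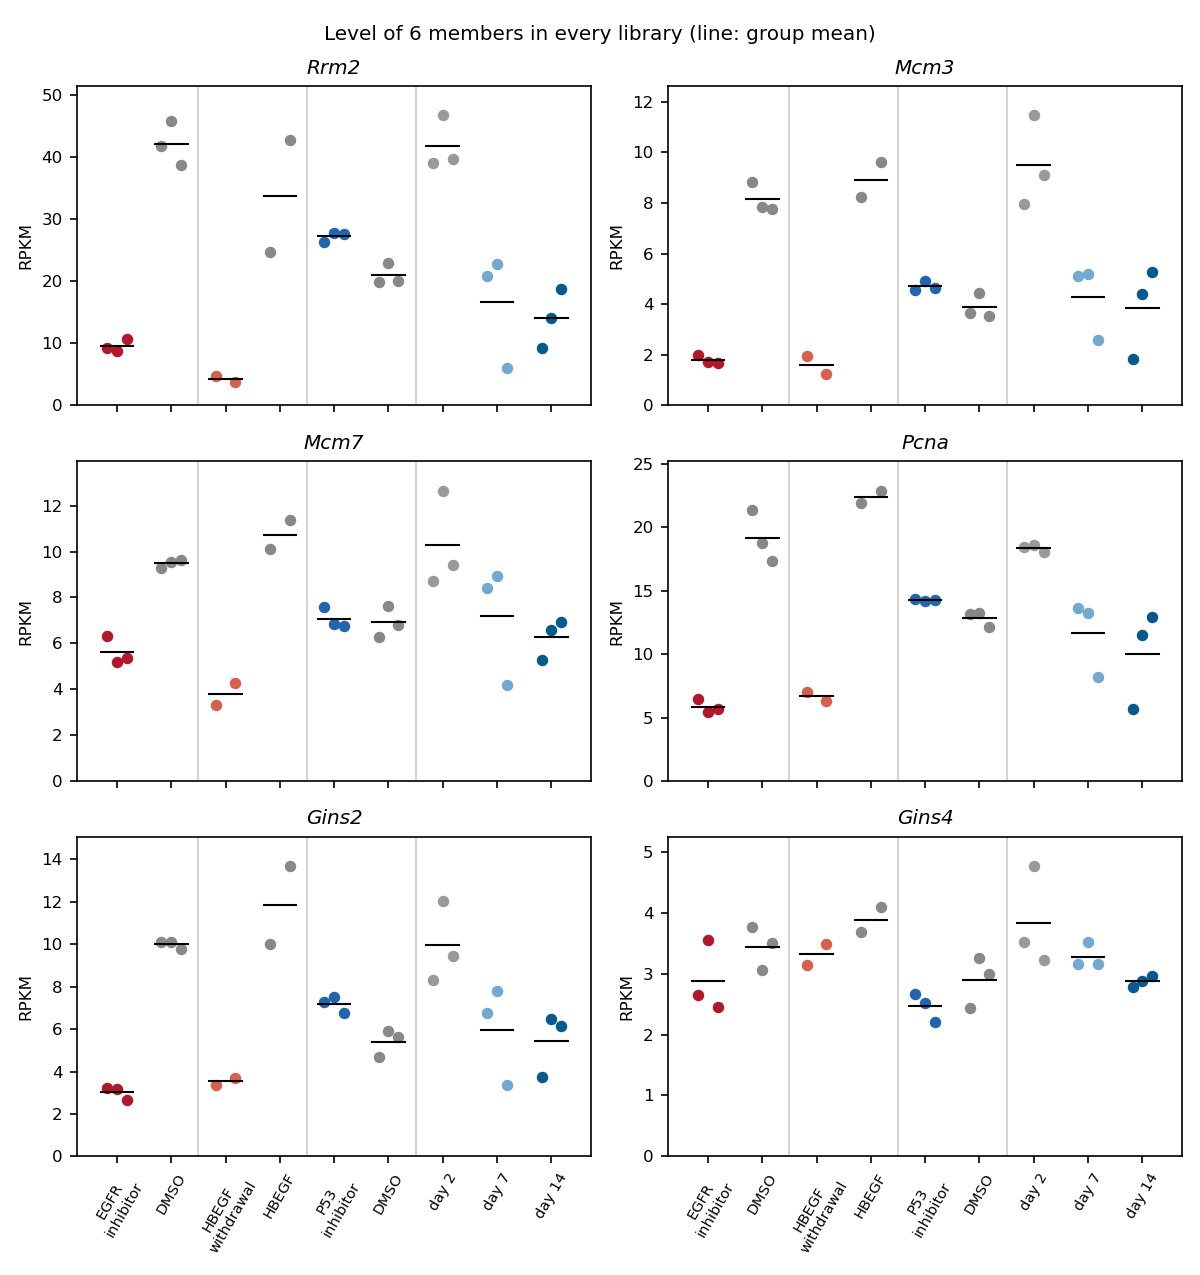
RPKM of Rrm2, Mcm3, Mcm7, Pcna, Gins2 and Gins4 in each of the 25 libraries (points), by group, with the group mean as a line; the vertical axis of each panel starts at 0. Gins4 alone of the 6 has EGFR inhibitor libraries that overlap the DMSO libraries, and day 7 replicate 3 is the lowest day 7 point in the panels of Rrm2, Mcm3, Mcm7, Pcna and Gins2.

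The polymerase genes fell as well, though Pold3 did not pass after withdrawal. Pole, the catalytic subunit of the leading-strand polymerase epsilon, had 0.557, 0.550 and 0.498 RPKM with the EGFR inhibitor, against 2.14, 2.20 and 2.25 RPKM with DMSO, and 0.439 and 0.505 RPKM after HBEGF withdrawal, against 1.78 and 2.30 RPKM with HBEGF. The groups did not overlap, and its log2 changes were -1.06 ± 0.16 (SE, limma adjusted p = 6.42e-05) and -1.04 ± 0.20 (adjusted p = 6.39e-04). Pold1 and Pold2, the catalytic and a regulatory subunit of polymerase delta, fell to 20.6% and 29.1% of the DMSO mean and to 24.4% and 47.3% of the HBEGF mean. Pold3, another polymerase delta subunit, had 1.30, 0.819 and 1.09 RPKM with the EGFR inhibitor, against 1.60, 1.46 and 1.38 RPKM with DMSO, and 1.07 and 0.876 RPKM after HBEGF withdrawal, against 1.32 and 1.40 RPKM with HBEGF. Its libraries were close but did not overlap. The change of Pold3 passed with the inhibitor, at -0.26 ± 0.09 (adjusted p = 0.0236), and missed after withdrawal, at -0.26 ± 0.11 (adjusted p = 0.0724); the first call was lost under median-of-ratios scaling, with mitochondrial genes left out of the scaling, with the experiment fitted alone, and without EGFR inhibitor replicate 2, DMSO replicate 1 or DMSO replicate 2, and under median-of-ratios scaling the change after withdrawal was just above 0. Pola2 and Prim1, of polymerase alpha and primase, fell in both comparisons, to 37.1% and 43.7% of the DMSO mean and to 37.4% and 30.2% of the HBEGF mean. Pola1, Prim2 and Pole2 were under the filter, Pola1 in spite of 169 to 964 reads per library, and without the filter each fell in both comparisons, with 0.0928, 0.0936 and 0.109 RPKM of Pola1 with the inhibitor, against 0.367, 0.328 and 0.318 RPKM with DMSO.

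Clamp, clamp loader and single-strand binding genes all fell in both comparisons. Pcna, the sliding clamp, had 6.45, 5.45 and 5.68 RPKM with the EGFR inhibitor, against 21.4, 18.8 and 17.3 RPKM with DMSO, and 7.00 and 6.32 RPKM after HBEGF withdrawal, against 21.9 and 22.9 RPKM with HBEGF. Every treated library was below every control, and the log2 changes were -1.55 ± 0.20 (SE, limma adjusted p = 9.91e-06) and -1.61 ± 0.24 (adjusted p = 7.50e-05). The 5 subunits of the clamp loader, Rfc1 to Rfc5, all fell in both comparisons; with the inhibitor they kept 31.1% (Rfc4) to 60.5% (Rfc2) of the DMSO mean, and after withdrawal 22.7% (Rfc4) to 54.0% (Rfc1) of the HBEGF mean. Lig1, the ligase that joins Okazaki fragments, fell to 25.4% and 33.7%. The 3 subunits of the single-strand binding protein RPA fell in both, to between 41.1% and 50.8% of DMSO and between 40.4% and 52.4% of HBEGF.

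Nucleotide supply held the largest change of the set. Rrm2 (ENSMUSG00000020649.11, chr12:24708241-24714146) had 9.19, 8.77 and 10.6 RPKM with the EGFR inhibitor, against 41.8, 45.8 and 38.7 RPKM with DMSO, and 4.66 and 3.77 RPKM after HBEGF withdrawal, against 24.7 and 42.8 RPKM with HBEGF. Its treated libraries were far under the controls, and the 2 HBEGF libraries differed from each other. The log2 changes were -2.03 ± 0.33 (SE, limma adjusted p = 8.98e-05) and -2.69 ± 0.40 (adjusted p = 6.47e-05), or 4.42-fold and 8.0-fold lower in mean RPKM. Rrm1, the large subunit of the same enzyme, fell to 32.4% of DMSO and 34.3% of HBEGF. Tyms, thymidylate synthase, had 1.46, 1.31 and 1.37 RPKM with the EGFR inhibitor, against 4.46, 4.0 and 4.01 RPKM with DMSO, and 1.1 and 0.722 RPKM after HBEGF withdrawal, against 3.01 and 4.69 RPKM with HBEGF. The groups were apart, with log2 changes of -1.12 ± 0.18 (adjusted p = 1.02e-04) and -1.33 ± 0.22 (adjusted p = 1.93e-04). Dut, the dUTPase that keeps uracil out of DNA, had 1.92, 1.68 and 1.70 RPKM with the EGFR inhibitor, against 5.59, 5.11 and 4.81 RPKM with DMSO, and 1.42 and 2.07 RPKM after HBEGF withdrawal, against 5.72 and 5.76 RPKM with HBEGF. It too fell in both, with log2 changes of -1.16 ± 0.19 (adjusted p = 1.20e-04) and -1.31 ± 0.24 (adjusted p = 3.59e-04). Tk1, the thymidine kinase of the salvage pathway, had 2.45, 1.84 and 1.84 RPKM with the EGFR inhibitor, against 3.90, 4.54 and 4.02 RPKM with DMSO, and 1.42 and 2.52 RPKM after HBEGF withdrawal, against 2.42 and 4.09 RPKM with HBEGF. With the inhibitor its libraries were apart and the change passed, at -0.76 ± 0.23 (adjusted p = 0.0132), though not under median-of-ratios scaling; after withdrawal 1 library was above 1 HBEGF library and the change did not pass, at -0.52 ± 0.28 (adjusted p = 0.183).

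Chromatin copying and fork protection genes moved with the rest. Uhrf1, which reads half-methylated DNA behind the fork for the methyltransferase Dnmt1, had 1.13, 1.44 and 0.988 RPKM with the EGFR inhibitor, against 4.15, 4.74 and 3.97 RPKM with DMSO, and 1.37 and 1.04 RPKM after HBEGF withdrawal, against 4.53 and 5.44 RPKM with HBEGF. No libraries overlapped, and the log2 changes were -1.28 ± 0.19 (SE, limma adjusted p = 3.42e-05) and -1.44 ± 0.23 (adjusted p = 1.15e-04). Chaf1a and Chaf1b, subunits of the histone chaperone CAF-1, fell to 28.5% and 32.7% of DMSO and to 21.9% and 17.8% of HBEGF. Tipin and Timeless, the fork protection pair, and Clspn, the mediator of the replication checkpoint, fell to 29.9%, 25.2% and 30.6% of DMSO and to 24.9%, 20.1% and 13.5% of HBEGF. Across the 39 members with a promoter sequence, the 10 tested ones with E2F-type letters had a median log2 change of -0.89 with the inhibitor, beside -0.99 for the 25 without, and of -1.24 after withdrawal, beside -1.12; these are descriptions with no test.

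**Figure D3:**
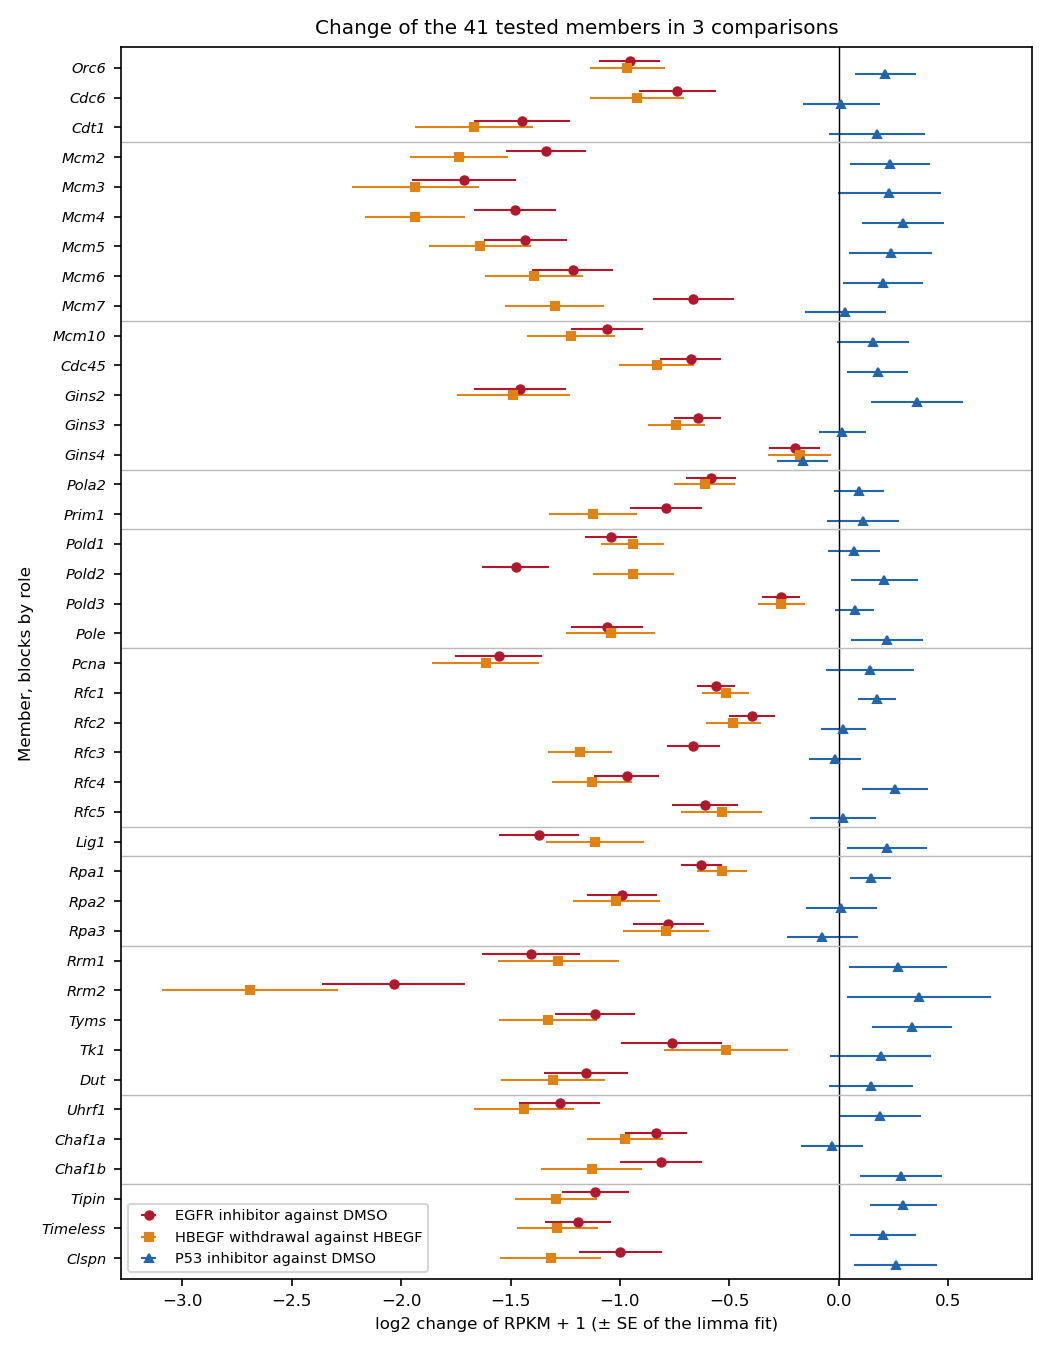
Log2 change of RPKM + 1 (horizontal axis) with its standard error for the 41 tested members, in blocks by role, for the EGFR inhibitor (circles), HBEGF withdrawal (squares) and the P53 inhibitor (triangles). The first 2 lie left of 0 for all members, furthest for Rrm2 and nearest for Gins4 and Pold3 (under median-of-ratios scaling Gins4 in both and Pold3 after withdrawal lay above 0), while the P53 inhibitor points lie between -0.16 and 0.37.

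The changes with the inhibitor and after withdrawal were then set against each other. In 30 of the 41 members the change was more negative after withdrawal, as in 59.1% of all tested genes, whose median difference was 0.08, but 0 differences passed (1.83% of all tested genes did), 3 had an unadjusted p below 0.05, and voom on recovered reads and log2(CPM + 1) called 0 and 0. Those with an unadjusted p below 0.05, named after their values were seen, were Rfc3 (0.52 ± 0.19, inhibitor minus withdrawal change ± SE), Mcm7 and Pold2 (-0.54 ± 0.24), with adjusted p of 0.174 to 0.301 by limma. A p above the threshold with 3 and 2 libraries per group does not show that the changes are equal.

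The P53 inhibitor gave small values of the opposite sign that did not pass the test. Means were higher with the inhibitor than with its DMSO for 40 of the 47 members, and all 3 inhibitor libraries lay above all 3 DMSO libraries for 22 of the 41 tested, where 9.05% of all tested genes did so. Rrm2 had 26.3, 27.8 and 27.6 RPKM with the P53 inhibitor, against 19.8, 22.9 and 20.1 RPKM with its DMSO. Its libraries did not overlap, and the log2 change was 0.37 ± 0.33 (SE, limma adjusted p = 0.854). Tyms had 2.86, 2.87 and 2.69 RPKM with the P53 inhibitor, against 1.81, 2.32 and 1.94 RPKM with its DMSO, again apart, with a log2 change of 0.34 ± 0.18 (adjusted p = 0.692). Gins2 had 7.27, 7.53 and 6.77 RPKM with the P53 inhibitor, against 4.66, 5.92 and 5.62 RPKM with its DMSO, with a log2 change of 0.36 ± 0.21 (adjusted p = 0.723). Gins4 had the most negative value of the 41, -0.16 ± 0.12 (adjusted p = 0.797). Of the 41 members 0 passed in either direction, where 0.181% of all tested genes did. The median log2 change was 0.18, beside -0.01 over all tested genes; 0 members had an unadjusted p below 0.05, and voom on recovered reads and log2(CPM + 1) called 0 and 0. The 10 astrocyte markers summed to 109 RPKM in each library with the P53 inhibitor, against 139.6 to 143 RPKM with its DMSO, with 0 called. The spread in this fit came from all groups, and the libraries of this experiment alone called 0.

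The EGFR inhibitor's change was below the P53 inhibitor's for 41 of the 41 members, as in 50.6% of all tested genes. The difference of the 2 changes passed for 39, all lower, where 16.6% of tested genes passed in that direction. It was -2.40 ± 0.46 (SE) for Rrm2 (limma adjusted p = 8.36e-04), -1.94 ± 0.33 for Mcm3 (adjusted p = 3.13e-04) and -1.82 ± 0.30 for Gins2 (adjusted p = 2.12e-04). The 2 that did not pass were Mcm7, at -0.70 ± 0.26 (adjusted p = 0.0529), and Gins4, at -0.04 ± 0.17 (adjusted p = 0.902). The controls of the 2 experiments were not at the same level: the P53 experiment's DMSO libraries all lay under the EGFR experiment's DMSO libraries for 41 of the 47 members and 37 of the 41 tested, as 22.6% of tested genes did, at a median of 57.7% over the 46 other than Fen1, and experiment and harvest cannot be told apart there.

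In untreated cultures replication genes fell with time. The summed share of the 47 members was 3803 ± 442 CPM on day 2, 2229 ± 739.8 on day 7 and 1879 ± 498 on day 14 (SD, n = 3 each). On day 14 against day 2, 39 of the 41 tested members fell and 0 rose, where 17.6% of all tested genes fell, with a median log2 change of -0.72 beside -0.11 over all genes. On day 7 against day 2, 30 fell and 0 rose, where 9.59% of all tested genes fell, with a median of -0.57 beside -0.05. From day 7 to day 14 0 passed, where 0.137% of all tested genes did in either direction; 4 members had an unadjusted p below 0.05, and voom on recovered reads and log2(CPM + 1) called 0 and 0. The comparisons share libraries, so their values are given side by side. The fit behind these counts did not pair the libraries, and counts with replicate number as a block are given at the end. The astrocyte markers summed to 73.5 to 101 RPKM on day 2, 117 to 162 RPKM on day 7 and 124 to 215 RPKM on day 14. Mitochondrial ribosomal RNA took 14.5 ± 1.99% of reads on day 2, 19.2 ± 0.249% on day 7 and 21.8 ± 1.91% on day 14, and with mitochondrial genes left out of the scaling 32 members fell on day 14 and 16 on day 7. The part of the markers in the fall was not tested. Over all genes, 769 were higher and 2439 lower on day 14 than on day 2, and 571 and 1328 on day 7; median-of-ratios scaling moved the day 14 median by 0.11 and gave 1132 and 1078 on day 14 and 592 and 708 on day 7, with 30 and 14 members lower.

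Rrm2 again had the largest log2 change of RPKM + 1. It had 39.0, 46.7 and 39.6 RPKM on day 2, 20.8, 22.8 and 6.08 RPKM on day 7 and 9.20, 14.1 and 18.8 RPKM on day 14. Its log2 change was -1.56 ± 0.33 (SE, limma adjusted p = 0.00217) on day 14 and -1.47 ± 0.33 (adjusted p = 0.00688) on day 7, each against day 2. All later libraries were below the day 2 libraries, and the 3 of a day were spread widely. Mcm3 had 7.95, 11.5 and 9.10 RPKM on day 2, 5.10, 5.20 and 2.59 RPKM on day 7 and 1.83, 4.41 and 5.28 RPKM on day 14. It changed by -1.18 ± 0.24 (adjusted p = 0.00142) and -1.02 ± 0.24 (adjusted p = 0.00836). Dut had 5.46, 8.39 and 4.92 RPKM on day 2, 2.90, 4.14 and 2.01 RPKM on day 7 and 1.65, 2.90 and 2.52 RPKM on day 14, a change of -1.10 ± 0.19 (adjusted p = 4.93e-04) and -0.86 ± 0.19 (adjusted p = 0.00691). Uhrf1 had 4.37, 5.40 and 4.87 RPKM on day 2, 2.80, 3.03 and 1.11 RPKM on day 7 and 1.21, 2.06 and 2.19 RPKM on day 14, a change of -1.07 ± 0.19 (adjusted p = 4.63e-04) and -0.88 ± 0.19 (adjusted p = 0.00500). These genes had no overlap between day 2 and the later days. Pcna had 18.5, 18.6 and 18.1 RPKM on day 2, 13.6, 13.2 and 8.22 RPKM on day 7 and 5.69, 11.5 and 12.9 RPKM on day 14, with the day 2 libraries close together and clear of all others, and changed by -0.88 ± 0.20 (adjusted p = 0.00364) and -0.64 ± 0.20 (adjusted p = 0.0399). For Mcm2 and Mcm5 the day 14 changes were -1.05 ± 0.18 (adjusted p = 4.64e-04) and -0.89 ± 0.19 (adjusted p = 0.00237).

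Some members had smaller log2 changes of RPKM + 1, a scale on which changes near 1 RPKM, as for Cdc6, come out too small. By mean RPKM Cdc6 stood on day 7 at 56.7% of day 2, below the members' median of 60.1%. Cdt1 had 4.54, 6.76 and 4.34 RPKM on day 2, 4.33, 4.51 and 2.38 RPKM on day 7 and 1.81, 2.68 and 4.41 RPKM on day 14. Both later days overlapped day 2, and its log2 change was -0.68 ± 0.22 (SE, limma adjusted p = 0.0319) on day 14 and -0.40 ± 0.22 (adjusted p = 0.257) on day 7. Cdc6 had 1.30, 1.52 and 1.29 RPKM on day 2, 0.650, 1.34 and 0.340 RPKM on day 7 and 0.269, 0.605 and 1.18 RPKM on day 14, with day 14 below day 2 in all libraries and day 7 overlapping both, and log2 changes of -0.53 ± 0.18 (adjusted p = 0.0371) and -0.45 ± 0.18 (adjusted p = 0.0986). Gins4, with 3.52, 4.77 and 3.22 RPKM on day 2, 3.16, 3.52 and 3.16 RPKM on day 7 and 2.78, 2.88 and 2.96 RPKM on day 14, had a log2 change of -0.31 ± 0.12 (adjusted p = 0.0681) by day 14. Besides Gins4, the tested member that did not pass on day 14 was Rfc3, a clamp loader subunit, at -0.30 ± 0.12 (adjusted p = 0.0816). All day 14 libraries lay below all day 2 libraries for 39 of the 41, as 24.7% of tested genes did, all day 7 libraries for 32, as 17.9% did, and all day 14 libraries below all day 7 libraries for 1, as 9.96% did.

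By value, the late step minus the early step was above 0 in 38 of the 41 members, and all 41 fell in the early step. With all libraries in, these 38 thus had a smaller later fall or none. The same difference was above 0 in 49.6% of all tested genes, though for rising genes that means a larger later step. Both steps use day 7 replicate 3, where the members stood at a median of 51.0% of the mean of the other day 7 libraries. Without it Mcm2 changed by -0.48 in the early step and -0.57 in the late step, and Rrm2 by -0.90 and -0.65. For some members the order of the steps thus rests on that library. Of the members' differences between the steps, 0 passed (0.549% of all tested genes did). In 5 members the unadjusted p was below 0.05, among them Rrm2 at 1.37 ± 0.57 (late minus early step ± SE, limma adjusted p = 0.338), and voom on recovered reads and log2(CPM + 1) called 0 and 0. The day 7 count rests on single libraries: without day 2 replicate 2 it was 7, without day 2 replicate 3 17 and without day 7 replicate 3 8, and with the 9 libraries of the days fitted alone it was 0. For day 14 against day 2 the count was 26 without day 14 replicate 1 and 7 with the days fitted alone. Of the 13 named members called on day 7, 3 kept the call whichever single library was left out (Rrm2, Uhrf1 and Dut), and 0 with the days fitted alone. The day 7 call of Pcna was also lost without any 1 of the day 2 libraries or day 7 replicate 3, with no filter, and under median-of-ratios scaling, quantile normalization or scaling without mitochondrial genes. Of the 16 named members called on day 14, 10 kept the call whichever library was left out; Gins2, Pole, Tyms and Tk1 lost it without day 14 replicate 1, Gins2 and Tk1 also without day 2 replicate 2, Cdt1 without any 1 of those 2 or day 14 replicate 2, and Cdc6 without any 1 of those 3 or of the other day 2 libraries. With the days fitted alone 4 kept it (Mcm2, Dut, Pold3 and Uhrf1). Cdt1 and Cdc6 did not pass on day 14 with no filter or under any of these scalings, nor did Gins2 with quantile normalization. With replicate number as a block, their adjusted p on day 14 was 0.0791 and 0.0868.

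Genes of mitosis, the later part of the cycle, did not track the replication genes in every library. Of 29 tested mitosis genes 29 fell with the EGFR inhibitor, 17 after HBEGF withdrawal, 16 on day 7 and 7 on day 14 against day 2, and 0 rose in any of these. Of all tested genes 22.2, 22.5, 9.59 and 17.6% fell in these comparisons, so that the mitosis count of day 14 is near the background. The median log2 change of the 29 was -1.78, -1.10, -1.07 and -0.81 in the same order. On day 14 that median lay beside -0.72 for the members and -0.11 over all tested genes, so the low count does not mean a small change. With the EGFR inhibitor the per-library median over the members was 34.1, 33.9 and 31.3% of the DMSO mean, and over the mitosis genes 17.7, 19.0 and 16.9%. In HBEGF replicate 1 the mitosis genes stood at a median of 27.1% of replicate 2, lower in 30 of 30, while the 46 members stood at 85.4% (57.7 to 126%). Pcna and Cdt1 were nearly level there, Pcna with 21.9 RPKM in HBEGF replicate 1 and 22.9 RPKM in replicate 2. The 5 nucleotide supply genes had the lowest median of the roles in that library, at 61.8% of replicate 2, Rrm2 with 24.7 RPKM in HBEGF replicate 1 and 42.8 RPKM in replicate 2. Origin licensing stood at 94.0%. Mki67, the proliferation marker, had 12 RPKM in replicate 1 and 59.6 RPKM in replicate 2.

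A similar gap was present among the days. In day 7 replicate 3 the mitosis genes stood at a median of 14.6% of the mean of the other day 7 libraries, and the members at 51.0%. Mki67 was 4.41 RPKM there, against 35.0 and 37.6 RPKM in day 7 replicates 1 and 2. Day 14 replicate 1 had the reverse order, with the members at a median of 59.1% and the mitosis genes at 78.6% of the mean of the other day 14 libraries. These are single libraries and no test was made.

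**Figure D4:**
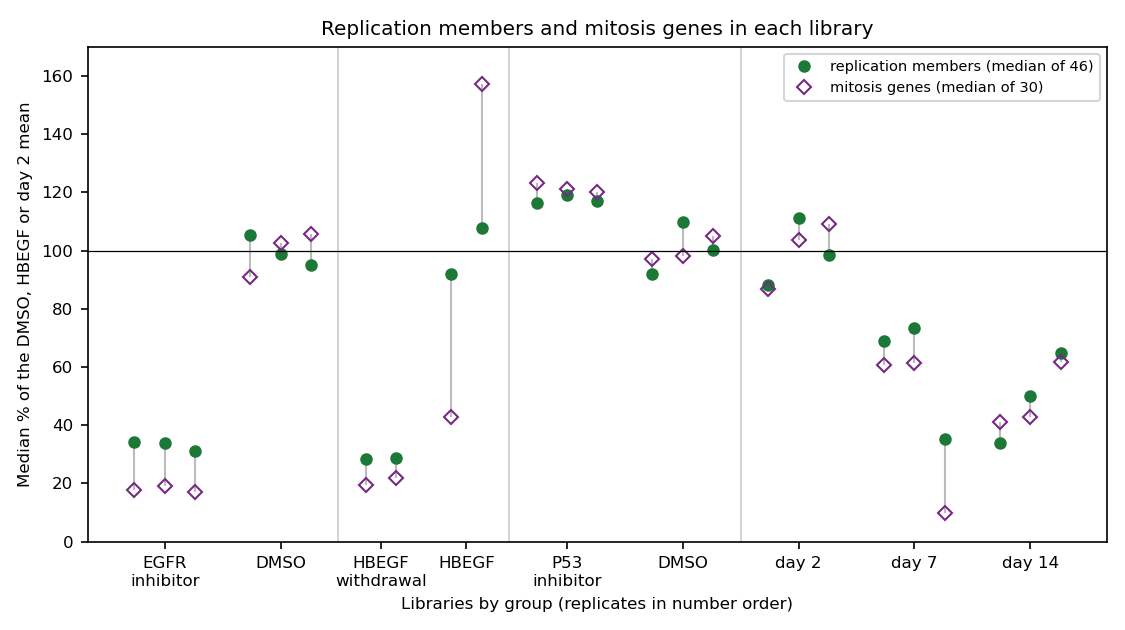
Median over 46 replication members (filled circles) and over 30 mitosis genes (open diamonds) in each library, as a percentage of the mean of the experiment's DMSO, HBEGF or day 2 libraries, with a grey line joining the 2 values of a library. The diamonds lie well below the circles in HBEGF replicate 1 and day 7 replicate 3, while the 3 P53 inhibitor libraries lie above 100% for both.

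Further genes of the same processes were read from 4 other lists. All are to be read against the 22.2, 22.5 and 17.6% of all tested genes that fell with the EGFR inhibitor, after HBEGF withdrawal and on day 14. Of 24 tested other replication genes 20 fell and 1 rose with the EGFR inhibitor, 18 fell and 0 rose after HBEGF withdrawal, and 17 fell and 0 rose on day 14 against day 2. Chek1, the checkpoint kinase, had 0.683 ± 0.173 RPKM with the EGFR inhibitor, against 2.92 ± 0.722 RPKM with DMSO (SD, log2 change -1.21 ± 0.16 SE, adjusted p = 1.04e-05). Cdc7, the kinase that fires origins, had 0.688 ± 0.111 RPKM with the EGFR inhibitor, against 2.60 ± 0.151 RPKM with DMSO (SD, log2 change -1.09 ± 0.15 SE, adjusted p = 2.19e-05). Pold4, the small subunit of polymerase delta, was the gene that rose, with 6.92 ± 0.247 RPKM with the EGFR inhibitor, against 3.65 ± 0.588 RPKM with DMSO (SD, log2 change 0.78 ± 0.23 SE, adjusted p = 0.0133); 24.6% of its exon bases are shared with another gene, and it was named after its values were seen. Of 21 tested other nucleotide and folate genes 19 fell and 1 rose with the inhibitor, 19 fell and 0 rose after withdrawal, and 12 fell and 0 rose by day 14. Shmt2, a mitochondrial enzyme of the folate cycle, had 7.40 ± 0.299 RPKM with the EGFR inhibitor, against 24.7 ± 2.79 RPKM with DMSO (SD, log2 change -1.61 ± 0.18 SE, adjusted p = 1.93e-06). Cad, which begins pyrimidine synthesis, had 1.69 ± 0.178 RPKM with the EGFR inhibitor, against 5.34 ± 0.145 RPKM with DMSO (SD, log2 change -1.24 ± 0.12 SE, adjusted p = 6.40e-07). The gene that rose, Dguok, a mitochondrial deoxynucleoside kinase named after its values were seen, had 0.993 ± 0.118 RPKM with the EGFR inhibitor, against 0.636 ± 0.00656 RPKM with DMSO (SD, log2 change 0.28 ± 0.09 SE, adjusted p = 0.0176).

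Of 12 S-phase chromatin genes 10 fell and 0 rose with the EGFR inhibitor, 10 and 0 after HBEGF withdrawal, and 11 and 0 by day 14. Dnmt1, the maintenance methyltransferase, had 2.06 ± 0.311 RPKM with the EGFR inhibitor, against 6.57 ± 0.547 RPKM with DMSO (SD, log2 change -1.31 ± 0.15 SE, adjusted p = 2.26e-06), and Nasp, a histone chaperone, had 4.99 ± 0.0866 RPKM after HBEGF withdrawal, against 19.0 ± 2.75 RPKM with HBEGF (SD, log2 change -1.74 ± 0.19 SE, adjusted p = 4.29e-06). Of 28 tested regulators of S-phase entry 22 fell and 2 rose with the inhibitor, 23 fell and 2 rose after withdrawal, and 19 fell and 2 rose by day 14. Ccnd1, cyclin D1, had 1.85 ± 0.513 RPKM with the EGFR inhibitor, against 71.6 ± 16.5 RPKM with DMSO (SD, log2 change -4.66 ± 0.27 SE, adjusted p = 2.57e-09), the largest fold here at 38.8-fold lower. After withdrawal Ccnd1 had 8.90 ± 0.771 RPKM without HBEGF, against 55.0 ± 6.80 RPKM with HBEGF (SD, log2 change -2.50 ± 0.33 SE, adjusted p = 1.88e-05). It shares 23.4% of its exon bases with LTO1. Cdkn1b, the inhibitor p27 of cyclin-dependent kinases, rose, with 25.2 ± 2.57 RPKM with the EGFR inhibitor, against 13.8 ± 1.05 RPKM with DMSO (SD, log2 change 0.83 ± 0.12 SE, adjusted p = 2.73e-05), and 19.8 ± 5.30 RPKM after HBEGF withdrawal, against 11.5 ± 0.661 RPKM with HBEGF (SD, log2 change 0.71 ± 0.14 SE, adjusted p = 9.68e-04). Rbl2, a retinoblastoma family protein that holds E2F targets silent in resting cells, shares 21% of its exon bases with a neighbour and was the other gene that rose in both, with 1.39 ± 0.175 RPKM with the EGFR inhibitor, against 0.955 ± 0.0899 RPKM with DMSO (SD, log2 change 0.29 ± 0.08 SE, adjusted p = 0.00564), and 1.65 ± 0.0421 RPKM after HBEGF withdrawal, against 0.979 ± 0.0132 RPKM with HBEGF (SD, log2 change 0.42 ± 0.09 SE, adjusted p = 0.00196). With the P53 inhibitor 1 of the 28 passed, Cdkn1c (p57), another inhibitor of these kinases, with 2.23 ± 0.234 RPKM with the inhibitor, against 6.35 ± 1.09 RPKM with its DMSO (SD, log2 change -1.18 ± 0.20 SE, adjusted p = 0.0194); 30.6% of its exon bases are shared. Genes of the E2F list outside the smallest p were named after their values were seen.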

How the data were processed

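Per the labels' protocols, a miRNeasy kit gave total RNA, which Ovation RNA-seq V2 and then NEBNext Ultra kits turned into libraries. The authors used STAR, HTSeq, edgeR and limma with GRCm38, per the submitters' processing notes; the sources used here give no versions, annotation or strand setting. The deposited table holds RPKM made by the authors, one column for each of 25 libraries, all used. RPKM times gene span summed to 1000823 to 1004357 per library (377329 to 519639 with exon length), so gene span was taken as the length. Reads recovered this way were whole (within 0.1, up to 20 reads) for 99.0 to 99.2% of low values. Positions and exons are from GENCODE M21 (GRCm38), matched for 98.9% of entries.

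Genes reaching 1 RPKM in 2 or more libraries (13850) were fitted in limma 3.58.1 (R 4.3.3) on log2(RPKM + 1), with a mean per group over all 25 libraries (16 residual degrees of freedom) and trended, robust empirical Bayes. P-values were two-sided and adjusted by Benjamini and Hochberg over all tested genes within a comparison, with calls below 0.05. The highest correlation between libraries was 0.9725, and no library pair was identical. The code was tested on simulated data. Between days 2 and 14 the deviations of same-numbered libraries correlated at 0.152 to 0.278 and those of differently numbered ones at -0.282 to 0.104. The numbers were therefore taken to pair that comparison, which rests on the data, not on the labels. The day 14 tests reported above were still made without pairing, and the counts with a replicate block are given below. Tables used Python 3.11.15 and pandas 2.3.3.

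The members and the other lists were chosen with earlier results of these data known. Named members are 10 set by role (Mcm2, Mcm5, Mcm10, Pcna, Cdt1, Cdc6, Gins2, Pole, Rrm2, Tyms), the 3 called members with the largest change per comparison, and members not called with the EGFR inhibitor or after HBEGF withdrawal; other lists give genes with the smallest p, unless said otherwise. Percentages of a control are ratios of mean RPKM.

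Alternatives tried were leaving out each library in turn, fitting each experiment alone, a replicate block, quantile or median-of-ratios scaling, scaling without mitochondrial genes, a pseudocount of 0.1, a 5 RPKM filter or none, empirical Bayes without trend or robust fit, log2(CPM + 1), and voom on the recovered reads.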

Additional observations from a re-analysis of the deposited data

How the results depend on the processing

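No alternative called a replication member higher in any of the 6 comparisons. A filter of 5 RPKM left 18 members to test and called 18 lower with the EGFR inhibitor, 18 after HBEGF withdrawal, 14 on day 7 and 18 on day 14 against day 2, and 18 for the inhibitors' difference; fewer genes were tested. Fitted alone, the withdrawal libraries gave 0, and the days gave 0 for day 7 and 7 for day 14, with fewer samples to estimate the spread. The day 7 count, 30 as reported, was 14 with median-of-ratios scaling, 13 with quantile normalization and 16 with scaling without mitochondrial genes, and the cause was not tested. Without 1 library at a time the counts were 39 to 40 (EGFR inhibitor), 36 to 38 (withdrawal, where a lone library is assumed to vary like the other groups), 7 to 34 (day 7), 26 to 39 (day 14) and 33 to 37 (inhibitors' difference), and 0 for the P53 inhibitor, day 14 against day 7 and the other 2 differences. Median-of-ratios scaling turned the change of Gins4 to 0.0616 (EGFR inhibitor) and 0.21 (withdrawal) and of Pold3 after withdrawal to 0.00286. Of the other values of named members across alternatives, 7 with the inhibitor, 15 after withdrawal, 70 on day 7 and 38 on day 14 lost a call with the same direction, and 259, 191, 147 and 228 values of members called as reported kept it.

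In most comparisons same-numbered libraries did not deviate together: correlations of their deviations ran from -0.00779 to 0.0625 in the EGFR experiment, -0.0218 to 0.153 in the P53 experiment, -0.156 to 0.0927 between days 2 and 7 and -0.238 to 0.0715 between days 7 and 14, so the numbers were not taken to pair these. A replicate block gave 40 (EGFR inhibitor), 37 (withdrawal), 10 (day 7) and 34 (day 14) members lower; on day 14 it changed the call of no named member other than Cdt1 and Cdc6.

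Depth limits the low members. Cdc6 had as few as 15 reads in a library, and Fen1 could not be measured here. Of the alternatives, log2(CPM + 1), leaving mitochondrial genes out of the scaling and voom were chosen after seeing the data.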
